A study of Mus musculus with 8 samples.

Results

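Heart muscle contracts when calcium released from the sarcoplasmic reticulum binds the troponin complex on the thin filaments and lets myosin of the thick filaments pull on them. Titin and the M-band proteins hold the filaments in register, Z-disc proteins anchor them at each end of the sarcomere, and the pump SERCA2 returns calcium to its store. Rodent ventricle uses mainly the alpha myosin heavy chain (Myh6) in adulthood, while the beta chain (Myh7) is the fetal form and is known to return under load. A further set, among them Ankrd1, Xirp2, Fhl2 and Csrp3, is known to respond to stretch.

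The 39 genes described here were listed by name for these roles: 6 of the thick filament, 6 of the thin filament, 4 of titin and the M-band, 8 of the Z-disc and desmin, 11 of the sarcoplasmic reticulum and calcium control, and 4 of stretch response and the intercalated disc. All 39 were measured, through 41 probe sets, among the 22180 genes tested. The hearts came from 4 male and 4 female mice, all Pcyt2+/- (heterozygous for Pcyt2, which encodes an enzyme of phosphatidylethanolamine synthesis) and all 8 months old, with 1 heart per expression array. The labels give the tissue as myocardium and name no further treatment. Both sexes carry the same genotype and no wild-type heart was analysed here, so sex is the comparison the groups allow.

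Each value is on a log2 scale with the probe set's median over the 8 hearts at 0, so it tells how hearts differ and not how abundant a transcript is. For the same reason the labelled tissue could not be checked against the absolute level of heart muscle markers. Xist was higher in every female heart and 3 Y-linked genes were higher in every male heart, which fixes the direction of the scale. The hearts differed in atrial and in fast skeletal muscle transcripts. The mean of 7 atrial genes was -1.19 in female 1, -1.03 in male 3 and -0.68 in male 1, against -0.19 to 0.56 in the other 5 hearts, and Bmp10, an atrial growth factor gene, lay between -3.46 and -2.25 in those 3. The mean of 13 fast skeletal genes was 0.68 in male 2, 0.49 in male 1 and 0.26 in female 1, against -0.22 to 0.092 in the others. The adipocyte mean, over the 6 measured of 8 listed genes, ran from -0.26 to 0.18 in males and from -0.14 to 0.47 in females, with female 4 the highest. Means were higher in females for 6 of 6 adipocyte and 7 of 7 atrial genes, and higher in males for 11 of 13 fast skeletal and 6 of 6 smooth muscle genes. None of these genes passed the adjusted threshold. The means over fibroblast, endothelial, leukocyte and red cell markers (7, 6, 6 and 1 measured genes) differed by less than 0.1 between the sexes. Single genes of these lists had larger differences (females minus males). An unadjusted limma p under 0.05 was found for 3 of 7 fibroblast genes, against 6.96% of all genes. Of these 3, the collagen genes Col1a1 (-0.44) and Col1a2 (-0.30) were higher in males and 1 gene in females. Such a p was found for 2 of 6 endothelial genes, both higher in males, led by Kdr (-0.19). It was also found for 3 of 6 adipocyte genes, all higher in females, and 1 of 6 smooth muscle genes, higher in males. In the atrial, fast skeletal, leukocyte and red cell lists there were 0. The part of other cells in the values below was not tested beyond the alternatives named beside them.

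No gene of the group passed the adjusted threshold between the sexes, and most differences were small. Of the 39 genes, 0 had a limma adjusted p under 0.05, where 0.0316% of all genes did, and the smallest adjusted p was 0.485. In the fit on autosomal genes only, 0 of all the genes tested passed, so the lack of calls is not particular to this group. At an unadjusted p under 0.05 there were 5, or 12.8%, against a background of 6.96% of all genes. Of these, 4 had higher means in males (background 3.32%), namely Casq2, Ldb3, Fhl2 and Ankrd1, and 1 in females (background 3.63%), Myom2. Without male 4 or without female 4 the count was 3, where 6.52% and 7.84% of all genes had such a p. Casq2 and Myom2 had such a p with any single heart left out, while Ldb3, Fhl2 and Ankrd1 each lost it in some of those fits. With the fast skeletal mean as covariate Ldb3 and Ankrd1 did not have it, and with the atrial mean Ankrd1 did not. In 31 of the 39 genes the difference between the sexes was smaller than 0.1 on the log2 scale, and 38 of the 39 had a 95% interval that left out a 1.5-fold difference in either direction. The exception was Myh7.

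Means leaned towards males. In 28 of the 39 genes, or 71.8%, the male mean was higher, against 50.4% of all genes, and the median difference (females minus males) was -0.033, against -0.00058 over all genes. The lean rests in part on female 4. This heart was the lowest of the 8 for 13 of the 39 genes and had values above 0 for 5 of them, and its median over the genes was -0.050, against -0.0080 to 0.023 in the other hearts. Without female 4 the male mean was higher in 23 of 39 genes and the median difference was -0.016; without male 4 these were 29 of 39 and -0.052. Female 4 also had the highest adipocyte mean, led by Cidec at 0.85 and Retn at 0.73. Not every gene of that list was highest there: Ucp1 read 0.18 in female 4 and 0.93 in male 3. The part of adipocytes in the low values of female 4 was not tested. In whole tissue, fewer cells of a type and less RNA per cell cannot be told apart.

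**Figure D1:**
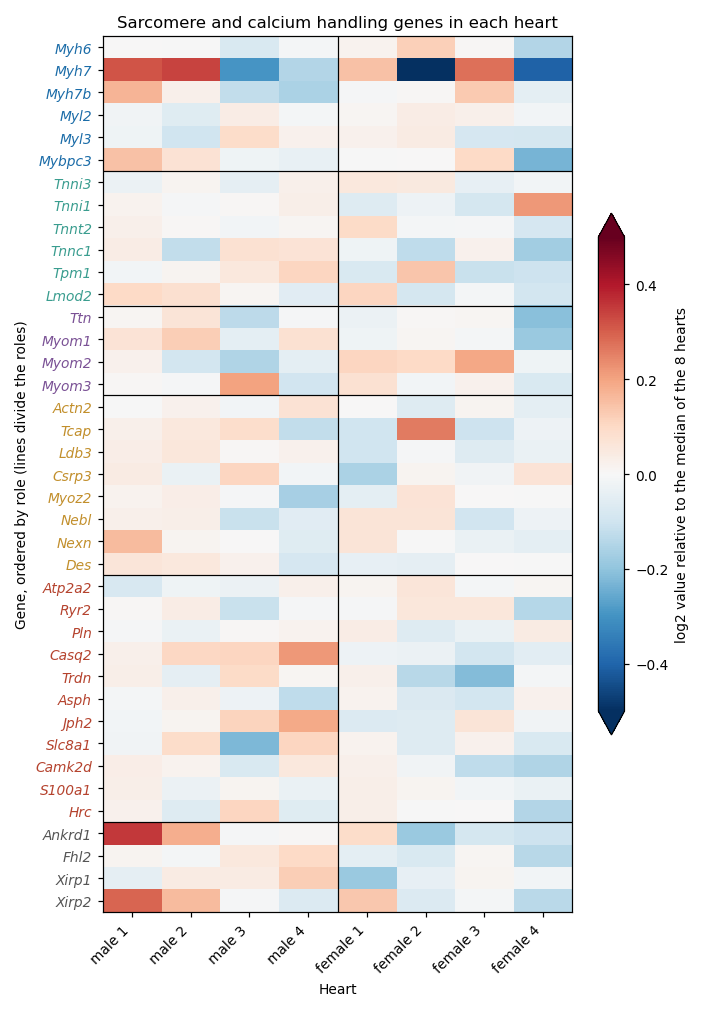
Log2 value of each of the 39 genes (rows, by role) in each of the 8 hearts (columns), relative to the gene's median; red is above and blue below, and colours are clipped at 0.5 in either direction. Most cells are pale, Myh7 ranges from -0.51 to 0.34, and the column of female 4 is mostly blue.

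Of the 39 genes, hearts differed most in the beta myosin heavy chain. Myh7 read 0.31, 0.34, -0.29 and -0.15 in males 1 to 4 and 0.15, -0.51, 0.28 and -0.40 in females 1 to 4. Males 1 and 2 and females 1 and 3 were thus high, and the other 2 hearts of each sex were low, with a range of 0.85, or 1.80-fold, between the lowest and the highest heart. Males averaged 0.052 ± 0.32 and females -0.12 ± 0.39 (SD, n = 4 for each sex). The difference of -0.18 ± 0.21 (SE, 95% interval -0.65 to 0.30) was smaller than either SD (limma adjusted p = 0.935; exact two-sided permutation test, p = 0.514). Its SD over the 8 hearts, 0.35, lay at percentile 99.7 of all genes. Myh7 is also the myosin of slow skeletal muscle. Tnni1, the slow skeletal troponin I gene, was highest in female 4 at 0.21, where Myh7 was low. In the other hearts Tnni1 lay between -0.089 and 0.029. The part of slow skeletal muscle in the Myh7 values was not tested. Without the 3 hearts highest in the fast skeletal myosin gene Myh4 (males 1 and 2 and female 1), the Myh7 difference between the sexes was 0.0065. Without the 3 hearts lowest in Bmp10 (males 1 and 3 and female 1) it was -0.31. With single hearts left out it ran from -0.31 without female 3 to -0.046 without female 2.

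The alpha chain and the third heavy chain varied far less. Myh6 read 0.0033, -0.0033, -0.075 and -0.012 in the males and 0.019, 0.12, 0.0062 and -0.15 in the females, with the highest and the lowest value both in females. Its difference was 0.021 ± 0.054 (SE, adjusted p = 0.977). Myh7b, an ancient myosin gene of slow and cardiac muscle, read 0.17, 0.027, -0.12 and -0.16 in the males and -0.0042, 0.0042, 0.13 and -0.049 in the females, a difference of 0.041 ± 0.073 (SE, adjusted p = 0.968). The sexes overlapped in both genes.

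These 3 myosin genes each carry a microRNA, and their mature forms are shown because they link the members of the myosin family by sequence and were read by separate array features. From RefSeq (GRCm38.p6), miR-208a-3p lies at chr14:54949072-54949093 on the minus strand within Myh6, miR-208b-3p at chr14:54975710-54975731 on the minus strand within Myh7, and miR-499-5p at chr2:155622893-155622913 on the plus strand within Myh7b. Capitals mark the seed, bases 2 to 8.
miR-208a-3p: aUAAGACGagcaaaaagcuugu
miR-208b-3p: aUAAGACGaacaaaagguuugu
miR-499-5p: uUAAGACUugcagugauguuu
The miR-208a-3p and miR-208b-3p forms share their seed and differ at 3 of 22 positions, and the seed of miR-499-5p differs from theirs at 1 position. The array feature named Mir208b ranged from -0.089 in male 1 to 0.086 in male 2, a range of 0.17 against 0.85 for its host Myh7. The Mir208a feature ranged from -0.24 in male 1 to 0.34 in female 2 and the Mir499 feature from -0.13 in male 2 to 0.12 in female 2, and the sexes overlapped in all 3. Whether these features read the hairpin, the mature form or the host transcript is not given in the sources used here.

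The remaining thick filament genes did not separate the sexes. Myl2, the ventricular regulatory light chain, lay between -0.059 and 0.037 in all hearts, the narrowest spread but 1 of the 39 genes (SD 0.033), with a difference of 0.027 ± 0.032 (SE). Myl3, the ventricular essential light chain, had a difference of -0.026 ± 0.050 (SE). Mybpc3, the myosin-binding protein gene often mutated in hypertrophic cardiomyopathy, was less steady (SD 0.12) and ran from -0.23 in female 4 to 0.15 in male 1. Its difference was -0.073 ± 0.072 (SE), and -0.0067 without female 4.

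**Figure D2:**
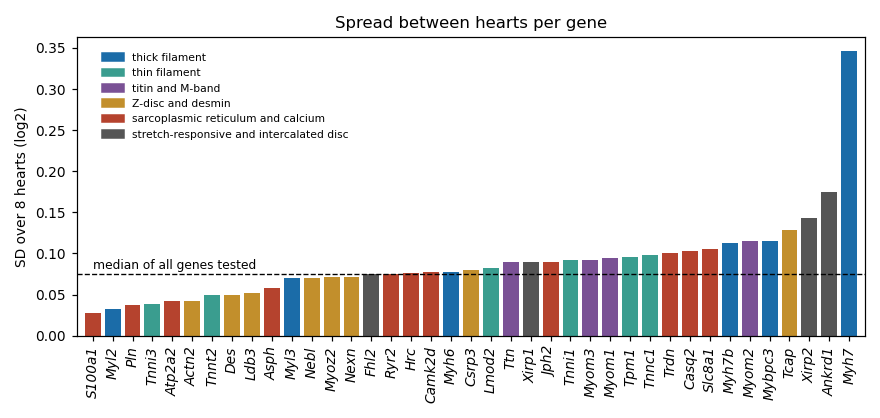
SD of each gene over the 8 hearts on the log2 scale (bars from 0, coloured by role), with the median SD of all genes tested as a dashed line at 0.075. S100a1 at 0.027, Myl2 and Pln are the steadiest, and Myh7 at 0.35 stands at more than any other member, followed by Ankrd1 at 0.17 and Xirp2 at 0.14.

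Thin filament genes moved little between the sexes. The adult troponin I gene Tnni3 read -0.029, 0.012, -0.043 and 0.025 in males and 0.053, 0.049, -0.041 and -0.012 in females, all within 0.096 of each other. Tnni1, the slow skeletal troponin I that the fetal heart uses, read 0.017, -0.0058, 0.0058 and 0.029 in males and -0.064, -0.027, -0.089 and 0.21 in females. Female 4 alone was high for it. The difference was 0.021 ± 0.035 for Tnni3 (SE, adjusted p = 0.961) and -0.0030 ± 0.063 for Tnni1 (SE, adjusted p = 0.996). Of the calcium-binding and tropomyosin-binding subunits, Tnnc1 had a difference of -0.091 ± 0.059 and Tnnt2 one of -0.0084 ± 0.040 (SE). Tpm1, the tropomyosin that covers the myosin sites on actin, had -0.078 ± 0.059, and Lmod2, which builds up thin filament length, had -0.053 ± 0.054 (SE). Over the 6 genes, 5 had higher means in males, with a median difference of -0.031.

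Myom2 had the smallest p of the genes with higher means in females. It encodes M-protein, a crosslinker of the M-band in adult heart and fast muscle. It read 0.023, -0.093, -0.15 and -0.049 in males and 0.11, 0.10, 0.19 and -0.023 in females. Females 1 to 3 lay above every male, and female 4 lay among the males. The difference was 0.16 ± 0.054 (SE), or 1.12-fold, with a limma adjusted p of 0.605 (0.486 to 0.948 over the alternatives; exact two-sided permutation test, p = 0.0571). Its relatives had differences of the other sign, -0.11 ± 0.054 for Myom1 (SE, unadjusted p = 0.0808) and -0.025 ± 0.062 for Myom3 (SE, unadjusted p = 0.700). Titin, the molecular spring encoded by Ttn, had -0.041 ± 0.060 (SE), with its lowest value, -0.21, in female 4. The unlike signs within the M-band were not tested against each other.

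At the Z-disc, Ldb3 (also called Cypher or ZASP), which ties alpha-actinin into the disc, separated the sexes by a small step. It read 0.031, 0.058, 0.0050 and 0.020 in males and -0.098, -0.0050, -0.066 and -0.035 in females. Every male lay above every female, with male 3 and female 2 only just apart. The difference was -0.080 ± 0.032 (SE), or 1.06-fold (limma adjusted p = 0.673; p = 0.0286 by an exact two-sided permutation test, the floor for 4 hearts against 4). The sexes did not overlap in 2 of the 39 genes, Ldb3 and Casq2, or 5.13%, against 3.74% of all genes, and both were higher in males (background 1.85%), with 0 higher in females (background 1.89%). With single hearts left out that count was 3 to 5, the 5 without female 4, since fewer hearts separate more easily (6.28% to 7.77% of all genes); it was 4 without male 1, male 2, male 4 or female 3.

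The other Z-disc genes did not separate. Tcap, whose protein caps titin at the disc, read 0.025, 0.052, 0.088 and -0.12 in males and -0.10, 0.26, -0.10 and -0.025 in females, a difference of -0.0024 ± 0.084 (SE, adjusted p = 0.998). Female 2 was its high heart, and its sign changed in 10 of 19 alternatives. Alpha-actinin 2 (Actn2) had -0.045 ± 0.034, the muscle LIM protein gene Csrp3 -0.049 ± 0.053 (-0.0041 without female 1), desmin (Des) -0.033 ± 0.039 and nexilin (Nexn) -0.033 ± 0.050 (SE). With higher means in females, calsarcin-1 (Myoz2) had 0.035 ± 0.050 and nebulette (Nebl) 0.031 ± 0.050 (SE), the latter 0.0031 without male 3.

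**Figure D3:**
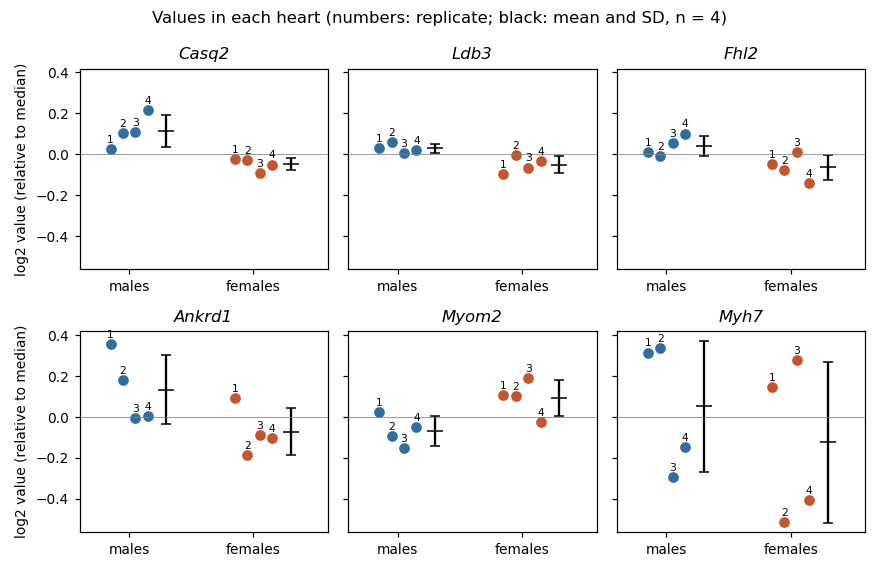
Log2 value in each heart for 6 genes, males in blue and females in orange, with the replicate number above each point and the mean and SD (n = 4) in black. Casq2 and Ldb3 do not overlap between the sexes, Fhl2, Ankrd1 and Myom2 overlap in part, and Myh7 is split within each sex.

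Among calcium genes, Casq2 had the smallest p of all 39. It encodes cardiac calsequestrin, the protein that buffers calcium inside the sarcoplasmic reticulum, and loss of it causes a catecholamine-driven arrhythmia. It read 0.026, 0.10, 0.11 and 0.22 in males and -0.026, -0.031, -0.091 and -0.051 in females. The male values lay above all female values, with male 4 the highest. Males averaged 0.11 ± 0.078 and females -0.050 ± 0.030 (SD, n = 4 for each sex), a difference of -0.16 ± 0.043 (SE, 95% interval -0.26 to -0.067), or 1.12-fold. It did not pass over all genes (limma adjusted p = 0.485; exact two-sided permutation test, p = 0.0286). Its direction held in all 19 alternatives, with adjusted p from 0.382 to 0.895 and differences from -0.22 to -0.13.

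Among the partners of calsequestrin, triadin and junctophilin 2 had higher means in males and did not pass the test. Triadin (Trdn), which tethers calsequestrin to the release channel, had a difference of -0.11 ± 0.058 (SE, unadjusted p = 0.0946). Junctophilin 2 (Jph2), which spans the cleft between the surface membrane and the reticulum, had -0.097 ± 0.053 (SE, unadjusted p = 0.0987). The release channel itself, Ryr2, had 0.011 ± 0.054 (SE), and its lowest values were in male 3 and female 4. Junctin is made from Asph, whose 2 probe sets moved against each other between hearts (differences of -0.037 and 0.044), so its mean difference of 0.0035 describes neither.

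Genes of calcium removal had small differences between the sexes. Atp2a2, which encodes the pump SERCA2, read -0.080, -0.022, -0.028 and 0.027 in males and 0.013, 0.061, -0.0080 and 0.0080 in females. Its difference of 0.044 ± 0.034 (SE, adjusted p = 0.866) had a 95% interval of -0.032 to 0.12. Phospholamban (Pln), the brake on that pump, read -0.0043, -0.032, 0.0043 and 0.016 in males and 0.038, -0.065, -0.032 and 0.040 in females, with a difference of -0.00076 ± 0.035 (SE, 95% interval -0.079 to 0.078, adjusted p = 0.998). The hearts' values overlapped for both genes. The sodium-calcium exchanger Slc8a1 had -0.016 ± 0.071 and the calcium-dependent kinase gene Camk2d -0.073 ± 0.049 (SE). S100a1, a calcium sensor that favours pump activity, was the steadiest of the 39 genes, between -0.032 and 0.030 in all hearts, and the calcium-binding protein gene Hrc had -0.031 ± 0.053 (SE). Of the 11 genes of this role, 7 had higher means in males, with a median difference of -0.016.

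All 4 genes of stretch response and the intercalated disc had higher means in males, and 2 of them, Ankrd1 and Fhl2, had an unadjusted p under 0.05 (background for this direction 3.32%). Ankrd1 encodes CARP, a nuclear and sarcomeric protein that rises in loaded hearts. It read 0.35, 0.18, -0.0064 and 0.0064 in males and 0.091, -0.19, -0.089 and -0.10 in females. Males 1 and 2 were highest, and female 1 lay above males 3 and 4. The difference was -0.21 ± 0.088 (SE), or 1.15-fold (limma adjusted p = 0.702; exact two-sided permutation test, p = 0.114), and without male 1 it was -0.13. Fhl2, a LIM protein gene of the titin spring region, read 0.012, -0.0080, 0.052 and 0.10 in males and -0.050, -0.076, 0.0080 and -0.14 in females. Female 3 lay among the males, and the difference was -0.10 ± 0.041 (SE, adjusted p = 0.670). Xirp1 had -0.097 ± 0.053 (SE).

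Xirp2, which encodes an actin-binding protein of the intercalated disc, read 0.29, 0.16, -0.0051 and -0.067 in males and 0.13, -0.069, -0.0089 and -0.13 in females. Its 3 highest hearts, males 1 and 2 and female 1, were also the 3 highest for Ankrd1 and for the fast skeletal mean. The difference between the sexes was -0.11 ± 0.085 (SE, adjusted p = 0.857). The 2 probe sets of Xirp2 gave differences of -0.27 and 0.046, with a correlation of 0.46 between them over the hearts.

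**Figure D4:**
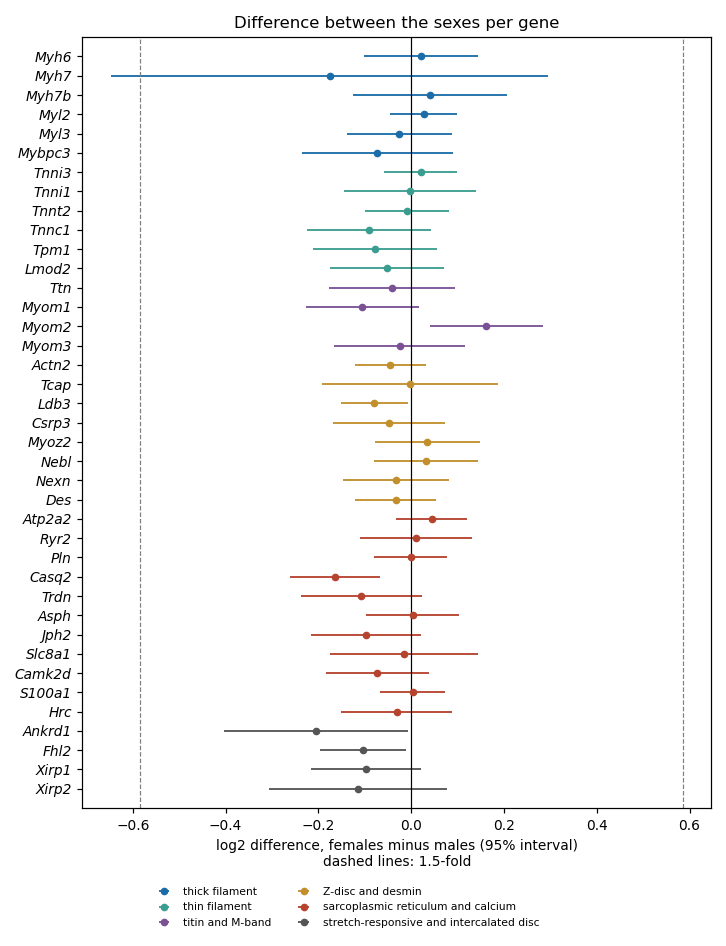
Log2 difference of each gene, females minus males, with its 95% interval (limma, 4 hearts per sex), coloured by role; dashed lines mark a 1.5-fold difference. The interval of Myh7, from -0.65 to 0.30, is the one that crosses a dashed line, and those of Casq2, Ldb3, Fhl2, Ankrd1 and Myom2 do not reach 0.

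Across hearts, 8 pairs of measures were compared, with p-values adjusted over the 8. Ankrd1 and Xirp2 followed each other (Pearson r = 0.93, exact permutation p = 0.00151, adjusted p = 0.0121; Spearman rho = 0.90, exact permutation p = 0.00456, adjusted p = 0.0365; n = 8). Without male 1 and female 2, the hearts farthest from the median of Ankrd1, r was 0.88, and with values centred within each sex it was 0.94. The relation rests on 1 of the 2 Xirp2 probe sets: r was 0.95 with the one (exact permutation p = 0.000645) and 0.53 with the other (exact permutation p = 0.175). Ankrd1 and Myh7 gave r = 0.73 (exact permutation p = 0.0363, adjusted p = 0.145) and rho = 0.83 (exact permutation p = 0.0154, adjusted p = 0.0615), with r = 0.56 when the same 2 hearts were left out.

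The fast skeletal mean and Myh7 gave r = 0.66 (exact permutation p = 0.0812, adjusted p = 0.217) and rho = 0.69 (exact permutation p = 0.0694, adjusted p = 0.185). Without males 1 and 2 that r was 0.27, so the relation rests on those hearts, and female 3, high for Myh7 at 0.28, had a fast skeletal mean of -0.11. The other 5 pairs had r from -0.28 to 0.12 (exact permutation tests, adjusted p = 0.821 each). They were Myh6 with Myh7, Tnni3 with Tnni1, Pln with Atp2a2, Casq2 with Ryr2, and the atrial mean with Myl2. Of these, Myh6 and Myh7 gave r = 0.12 over all hearts and 0.79 without females 2 and 4, in which Myh6 had its highest and lowest values. The atrial mean and Myl2 had r = -0.28, and 0.12 without male 3 and female 1, the hearts with the lowest atrial means.

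**Figure D5:**
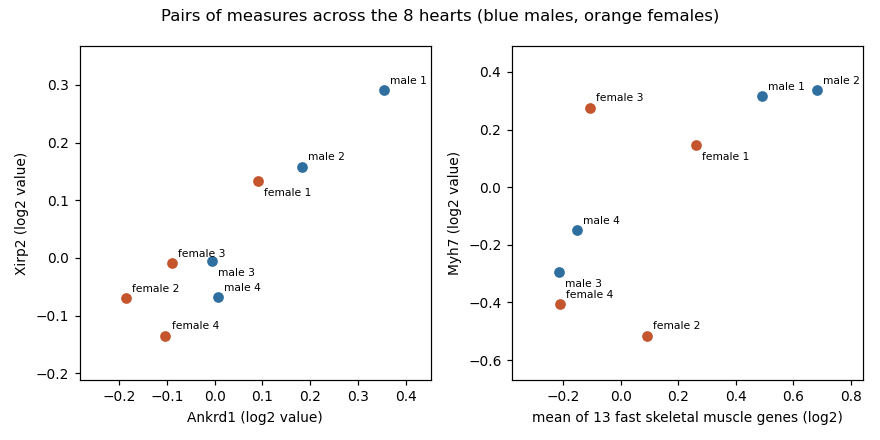
Left, Xirp2 against Ankrd1 in each of the 8 hearts (log2 values); right, Myh7 against the mean of 13 fast skeletal muscle genes; males are blue and females orange. Males 1 and 2 and female 1 lie at the top right of both panels, and female 3 is high for Myh7 at a low fast skeletal mean.

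Promoter sequences are shown for the pair that followed each other and for Casq2, which had the smallest p of the 39 genes. They are the 250 bases before the RefSeq start site (GRCm38.p6), and capitals mark matches on either strand to the MCAT element GGAATG, the MEF2 box or the CArG box. Ankrd1 (chr19:36119845-36120094, minus strand) held 2 MCAT matches, Xirp2 (chr2:67445752-67446001, plus strand) 1 MEF2 match from -74 to -65, and Casq2 (chr3:102086165-102086414, plus strand) 1 MEF2 match from -69 to -60; none of the marked matches overlapped.
Ankrd1: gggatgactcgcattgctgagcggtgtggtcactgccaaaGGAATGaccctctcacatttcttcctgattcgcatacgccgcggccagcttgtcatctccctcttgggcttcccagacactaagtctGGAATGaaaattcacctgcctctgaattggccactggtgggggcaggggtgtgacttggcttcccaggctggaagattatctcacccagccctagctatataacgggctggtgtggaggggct
Xirp2: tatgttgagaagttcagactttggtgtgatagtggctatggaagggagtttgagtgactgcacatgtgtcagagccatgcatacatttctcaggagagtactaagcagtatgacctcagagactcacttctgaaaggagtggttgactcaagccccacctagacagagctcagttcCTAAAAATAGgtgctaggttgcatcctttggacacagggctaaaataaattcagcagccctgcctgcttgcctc
Casq2: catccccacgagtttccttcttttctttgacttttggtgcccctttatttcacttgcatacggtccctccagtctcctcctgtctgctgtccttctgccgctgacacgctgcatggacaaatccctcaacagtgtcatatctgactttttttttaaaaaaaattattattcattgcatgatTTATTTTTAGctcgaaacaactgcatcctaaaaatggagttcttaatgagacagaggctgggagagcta
Entries were found for 32 of the 39 genes; Asph, Atp2a2, Myom2, Nexn, Tcap, Trdn and Xirp1 were not matched. In that window the MEF2 box was found in 7 of the 32 (21.9%, against 3.42% of all 27025 genes with an entry), namely Casq2, Fhl2, Mybpc3, Myom3, Myoz2, Ttn and Xirp2. The CArG box was found in 5 (15.6% against 1.62%) and the MCAT element in 8 (25.0% against 14.4%), among them Ankrd1, Myh6 and Myh7. Genes with several listed start sites, such as Myh7, counted as holding a motif where any window did. These shares describe letters in a window and were not tested. Myh7, the gene with the largest SD, has 2 listed start sites. The window of the downstream one held no match to these motifs and is not shown, so its MCAT match lay in the other window. Genes that hold a MEF2 match had differences of either sign, such as -0.16 for Casq2 and 0.035 for Myoz2.

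Other genes of the same machinery, listed by role, likewise gave no call in this fit. Of 39 measured other sarcomere genes (40 listed), 0 passed, 27 (69.2%, against 50.4% of all genes) had higher means in males and the median difference was -0.037. At an unadjusted p under 0.05 there were 6, or 15.4%, against 6.96% of all genes, and all 6 were higher in males (background 3.32%). The skeletal actin gene Acta1 had the smallest p, with 1.12, 0.32, 0.53 and 0.43 in males and -0.32, -0.82, -0.47 and -0.58 in females, and a difference of -1.15 ± 0.17 (SE, limma adjusted p = 0.137). Over the alternatives its limma adjusted p ran from 0.0181, with the replicate numbers as a block, to 0.395. Ankrd23, a stretch-responsive relative of Ankrd1, had -0.34 ± 0.083, the nonmuscle and smooth muscle light chain gene Myl6 -0.32 ± 0.079, and the small heat shock protein gene Hspb8 -0.18 ± 0.048 (SE). Their adjusted p-values were 0.481 for Ankrd23 and Myl6 and 0.499 for Hspb8. The Myl6 difference stood beside a mean over 6 smooth muscle markers of 0.074 in males and -0.030 in females, and the part of those cells was not tested.

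Of 29 measured other calcium handling genes (36 listed), 0 passed and 21 (72.4%, against 50.4% of all genes) had higher means in males, with a median difference of -0.037. At an unadjusted p under 0.05 there were 3, or 10.3%, against 6.96% of all genes, with 2 higher in males (background 3.32%) and 1 in females (background 3.63%). Camk2b, a further subunit gene of the calcium-dependent kinase, read 0.058, 0.0061, 0.022 and 0.071 in males and -0.23, -0.23, -0.0061 and -0.49 in females. Its sexes did not overlap, and the difference was -0.28 ± 0.086 (SE, adjusted p = 0.571). Rrad, which restrains the L-type calcium channel, had -0.33 ± 0.14 (SE, adjusted p = 0.702), and -0.21 without female 2. Camk2g had -0.13 ± 0.061 (SE, adjusted p = 0.720). Calreticulin (Calr), the calcium-binding chaperone of the endoplasmic reticulum, had 0.18 ± 0.055 with higher values in females (SE, adjusted p = 0.563).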

How the data were processed

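Hearts of 8 mice (4 per sex) were read on 1 short-oligonucleotide array each, from 100 ng of RNA, per the labels' protocols. The deposited log2 table holds 34351 probe sets; every row is centred on its median (tolerance 1e-06). No source used here names the software or the log base, and base 2 was taken. Nothing was filtered. Probe sets with 1 platform gene symbol (23521) were averaged into 22180 genes.

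The sexes were compared in a limma model (version 3.58.1, R 4.3.3; lmFit and eBayes) without covariates, and p-values were adjusted over all genes by Benjamini-Hochberg, at 0.05; the code was tested on simulated data. Samples are called biological replicates; with 4 arrays per sex their number limits precision. Alternatives were other normalizations, single probe sets (for each gene the one with the smallest p), eBayes settings, array weights, a replicate block and marker covariates. Others were autosomal genes, a threshold of 0.10 and each array left out. Leaving out 3 hearts at a time was chosen after seeing the data.

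The genes and lists were chosen with earlier results of these data known. Values in every heart were given, by rule, for genes at an unadjusted p under 0.05 or without overlap, the myosin heavy chains, troponin I forms, Pln, Atp2a2 and the 4 largest SDs. From each list of other genes the 4 smallest p were named, and from marker lists at most 3 genes of large SD.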

Additional observations from a re-analysis of the deposited data

Results flagged for a closer look

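In 94 groups of 4 hearts (each of the 39 genes and 8 marker means, by sex), 4 had a heart set apart from the other 3 of its sex by Dixon's test at the 95% level, which chance gives in about 1 group in 20. Tpm1 read 0.14 in female 2, against -0.11 to -0.076 in the other females. Myom1 read -0.18 in female 4, against -0.020 to 0.0085, and Hrc read -0.15 in female 4, against -0.00060 to 0.028. The mean of the 6 endothelial markers was -0.12 in female 1, against -0.018 to 0.00069.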

How the results depend on the processing

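No gene of the 39 passed the adjusted threshold in any of the 19 alternatives or at an adjusted p under 0.10, and the smallest adjusted p among them was 0.382. The count at an unadjusted p under 0.05 was 3 to 5 with single hearts left out (6.06% to 7.84% of all genes), 7 without the 3 hearts with the highest Myh4 (7.29%) and 3 without the 3 with the lowest Bmp10 (5.22%). The count of genes whose sexes do not overlap was 3 to 5 with single hearts left out (6.28% to 7.77% of all genes), and 11 and 10 without those sets of 3 (22.7% and 19.8% of all genes), where fewer hearts separate more easily. The labels do not say whether the replicate numbers pair the hearts, and pairing was not tested beyond the correlations that follow. Deviations from the sex mean had correlations of 0.14, 0.097, 0.0062 and 0.091 between hearts of the same number. Each heart had 4 hearts of the other sex to match with, and 5 of 8 hearts correlated best with the one of their own number. With the replicate numbers as a block, 5 of the 39 genes had an unadjusted limma p under 0.05, against 7.64% of all genes. Of these, 3 were also counted without the block. In that fit 8 of all genes passed, among them 1 other gene of the pathway, Acta1 at -1.15 (limma adjusted p = 0.0181).

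Of the 39 differences, 18 kept their sign in all alternatives. The cause of the sign changes in the others was not tested. Among the 18 was Xirp2, whose probe set with the larger p was not used as an alternative and had a difference of 0.046. Without the 3 hearts with the highest Myh4 the differences were 0.0065 for Myh7, 0.015 for Tnni1, 0.0017 for Ttn, 0.062 for Tcap, 0.0029 for Nexn, 0.016 for Des, 0.017 for Slc8a1 and -0.0018 for S100a1. Without the 3 with the lowest Bmp10 they were -0.020 for Tnni3, 0.021 for Tnni1, 0.027 for Myom3, 0.080 for Tcap, 0.044 for Csrp3, -0.0050 for Nebl, 0.0011 for Des, -0.025 for Ryr2 and 0.014 for Hrc. With the atrial covariate they were 0.00044 for Tnnt2 and 0.0041 for Pln, and with the fast skeletal covariate 0.0053 for Tnnt2, 0.011 for Tcap and 0.012 for Slc8a1. Array weights gave 0.0072 for Tcap and quantile normalization -0.00017 for Asph. With single hearts left out, differences that changed sign ran from -0.019 to 0.070 for Myh6, -0.0045 to 0.10 for Myh7b, -0.058 to 0.0055 for Myl3, -0.072 to 0.030 for Tnni1, -0.040 to 0.019 for Tnnt2, -0.080 to 0.010 for Ttn, -0.065 to 0.033 for Myom3, -0.087 to 0.035 for Tcap, -0.011 to 0.056 for Myoz2, -0.063 to 0.010 for Nexn, -0.021 to 0.056 for Ryr2, -0.016 to 0.019 for Pln, -0.027 to 0.024 for Asph, -0.086 to 0.024 for Slc8a1, -0.0067 to 0.015 for S100a1 and -0.053 to 0.0075 for Hrc.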

Other observations

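The spread of Myh7 between hearts was shared in part by Myot, the gene of the Z-disc protein myotilin, which was chosen after its values were seen. Myot read 0.13, 0.23, -0.023 and -0.34 in males 1 to 4 and 0.023, -0.77, 0.33 and -0.61 in females 1 to 4. Its lowest hearts, females 2 and 4, were also the lowest for Myh7, and its highest, female 3 and male 2, were among the 3 highest for Myh7. Of the 3 hearts with high fast skeletal means, males 1 and 2 were among the 3 highest for Myot, and female 1, at 0.023, came next. The part of skeletal muscle in these values was not tested.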
